A study of Homo sapiens with 6 samples.

Results

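The endoplasmic reticulum (ER) unfolded protein response was examined through 37 genes, which were the rows of the deposited count table whose gene name stood on a list of chaperones, disulfide enzymes, stress sensors, degradation factors and translocation factors. The table held 58735 genes. The list names genes by function, and it was drawn up with earlier results of these data known. RNA-seq was performed on A549, a human lung adenocarcinoma cell line, grown in RPMI1640 medium with 10% FBS in both groups. Control cells carried an empty lentiviral vector, and IL17D-overexpressing cells carried the same kind of vector with the open reading frame of interleukin 17D, a secreted cytokine, with 3 libraries in each group. The vector backbone also encodes GFP behind an internal ribosome entry site, and the open reading frame was cloned from cDNA of H82, a small cell lung cancer line. The forward primer adds a FLAG tag, a short peptide label, directly after the start codon, and immunoblots of these cells were probed for Flag. Whether a group was a clone or a pool of transduced cells, and whether its libraries came from separate cultures, is not given in the sources used here, so p-values measure the spread between these samples, which may be technical. The comparison asks how the mRNA of the ER folding and stress genes stood in cells with the IL17D vector against cells with the empty one. Entry of the tagged protein into the ER and its release from these cells are not reported in the sources used here.

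Proteins that enter the secretory pathway are folded in the ER by chaperones and disulfide enzymes, and those that fail to fold are pulled back to the cytosol and degraded. The sensors IRE1 (encoded by ERN1), ATF6 and PERK span the ER membrane and respond when unfolded proteins accumulate, and the chaperone HSPA5 holds them in check. IRE1 splices the mRNA of the transcription factor XBP1, ATF6 is cut by proteases of the Golgi to release a transcription factor, and PERK slows translation. XBP1 and ATF6 raise transcription of many of the chaperone and degradation genes measured here.

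The promoters of the members were searched for the short DNA elements through which ATF6 and XBP1 are known to act, because these elements show which members have the textbook sequence of the response beside their start site. RefSeq promoter windows on GRCh38.p14, from 250 bases before to 50 bases after each start site, were given for 34 of the 37 genes, and DERL1, DERL3 and PDIA3 were not searched. The ER stress response element is CCAAT and CCACG with 9 bases between them, and on both strands it was found for 7 of 34 members (20.6%), HSPA5, HSP90B1, CALR, CANX, CRELD2, PDIA6 and XBP1. Over all 27305 genes with a window it was found for 25 (0.0916%). The second form, ATTGG and CCACG with 1 base between them, was found for HYOU1, SDF2L1 and HERPUD1, which is 8.82% of members, against 0.0696% of all genes. The UPR element, TGACG followed directly by TGG, was found for HYOU1 and TXNDC5 (5.88% of members, against 0.927% of all genes), and in HYOU1 it overlaps a copy of the second form. Sites are printed for 6 members, 3 with each form, 5′ to 3′ on the strand of the gene with 20 bases on each side. Capitals mark the ends of the element, and where the element lies on the opposite strand the capitals show its reverse complement.
HSPA5, chr9:125241371-125241429, minus strand, centred 57 bases before the start site: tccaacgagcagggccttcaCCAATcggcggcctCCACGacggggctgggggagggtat
CALR, chr19:12938364-12938422, plus strand, element on the opposite strand, centred 216 bases before the start site: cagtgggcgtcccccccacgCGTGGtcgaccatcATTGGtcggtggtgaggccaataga
XBP1, chr22:28800583-28800641, minus strand, centred 43 bases before the start site: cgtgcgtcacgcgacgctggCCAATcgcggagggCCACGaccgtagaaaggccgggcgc
HYOU1, chr11:119057254-119057304, minus strand, second form on the opposite strand, centred 74 bases before the start site: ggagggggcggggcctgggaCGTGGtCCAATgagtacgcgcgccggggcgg
HYOU1, chr11:119057360-119057410, minus strand, second form on the opposite strand, centred 180 bases before the start site: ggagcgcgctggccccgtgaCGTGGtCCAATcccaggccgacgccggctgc
SDF2L1, chr22:21642094-21642144, plus strand, second form on the opposite strand, centred 183 bases before the start site: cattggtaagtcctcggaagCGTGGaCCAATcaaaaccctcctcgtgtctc
HERPUD1, chr16:56932005-56932055, plus strand, second form, centred 112 bases before the start site: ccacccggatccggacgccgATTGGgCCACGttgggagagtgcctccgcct
A match is a description of the letters in the window and was not tested as a binding site. The members were listed as genes of this response and the elements are known from it. Their higher share among members is therefore not an independent result.

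The deposited values were raw counts per gene, and a library held 14319398 to 16521021 of them. Counts were scaled to counts per 1000000 counts of a library (CPM) with edgeR's TMM factors, which lay between 0.997 and 1.004, and a count of 3 corresponded to 0.182 to 0.210 CPM. IL17D stood at 1.24 to 2.11 CPM in the control libraries and at 1876 to 1956 CPM in the IL17D-overexpressing libraries, so that every library matched its label. Divided by gene length, the mean of the overexpressing libraries was 574 CPM per kilobase, with a length that includes untranslated sequence of the chromosomal gene, against 243 CPM per kilobase for HSPA5, the highest member, in the control libraries. Of the epithelial markers, the keratins KRT8 and KRT18 made up nearly all of the signal, with a list sum of 11120 to 11540 CPM in control and 10800 to 11040 CPM in overexpressing libraries, whereas KRT19 had 3 to 11 counts and EPCAM 9 to 21 counts in a library. CDH1 (E-cadherin) was lower in overexpressing libraries, at a mean of 35.7 CPM against 43.4 CPM in control, with a log2 fold change of -0.28 and an adjusted edgeR p of 0.0306. KRT8 was at -0.056 (unadjusted p of 0.0140, adjusted p of 0.265), and neither the groups of CDH1 nor those of KRT8 overlapped. The sums of 5 leukocyte, 5 endothelial and 5 alveolar surfactant markers were at most 1.66 CPM in every library, and that of 5 fibroblast markers was 23.0 to 24.9 CPM in control and 19.6 to 23.95 CPM in overexpressing libraries. COL1A1 made up nearly all of the fibroblast sum, at a mean of 23.3 CPM in control and 21.0 CPM in overexpressing libraries. The other markers of that list had at most 10 counts in a library. The part of these genes and sums in the results below was not tested. In RNA from whole cultures, fewer cells that express a gene and less RNA of it per cell cannot be told apart.

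Of the 37 genes, 36 passed edgeR's filter on low counts, and DERL3, a homologue of the derlins of the degradation channel, had 0 to 3 counts in a library and was not tested. Of its 31-base stretches 70.9% also occur in SMARCB1, so how reads were shared between these genes is uncertain. No member passed an adjusted p of 0.05 with edgeR's quasi-likelihood test, where 249 of all 15754 tested genes did (1.58%). DESeq2 and limma voom also called 0 members, and the smallest adjusted p of a member with edgeR was 0.101, for HYOU1. At an unadjusted p under 0.05, 6 of 36 members (16.7%) were lower in the IL17D-overexpressing libraries, HYOU1, HSPA5, SEL1L, PDIA4, HSP90B1 and ERN1, and 0 were higher. Among all tested genes, 5.99% were lower and 5.59% higher at that p. The fitted log2 fold change was below 0 for 26 members and above 0 for 10, against 50.1% below 0 over all tested genes. Its median over the members was -0.043, and over all tested genes -0.00044, and single members ranged from -0.17 (ERN1) to 0.11 (TXNDC5).

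**Figure D1:**
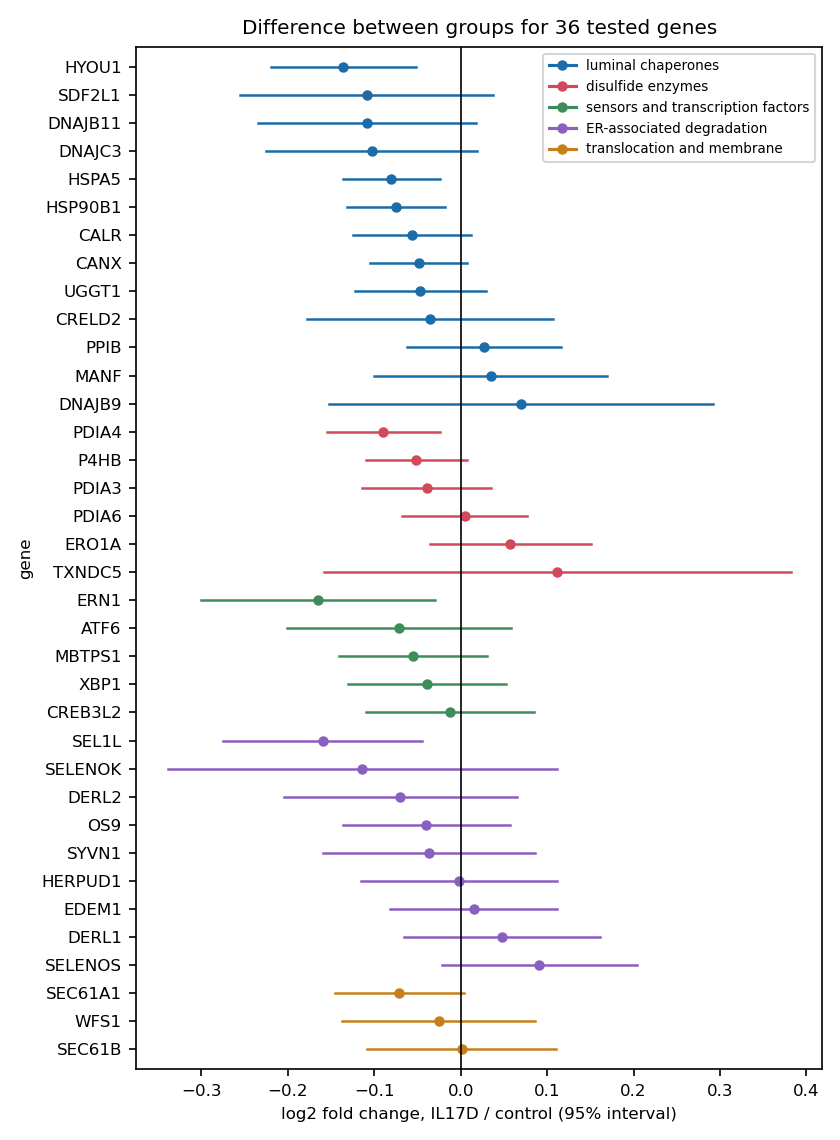
Log2 fold change of IL17D-overexpressing against control libraries (x axis) for the 36 tested genes (y axis), coloured by role, with points for edgeR's estimate and lines for a 95% interval computed from its F statistic. Of the 36 intervals, 6 lie wholly below 0 and 0 lie wholly above it.

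All differences were small. The 95% intervals of the log2 fold changes reached from -0.34 for SELENOK to 0.38 for TXNDC5, the least precise genes, and for 24 of 36 members the whole interval lay within 0.2 of 0. Counting error alone was 0.770% to 7.04% of a library's value, with a median over members of 2.63%. In 12 of 36 members (33.3%) all 3 IL17D-overexpressing libraries lay below all 3 control libraries, where 8.31% of all tested genes did. The 12 were HSPA5, HSP90B1, HYOU1, CANX, UGGT1, DNAJB11, DNAJC3, PDIA4, P4HB, ERN1, MBTPS1 and SEC61A1. The opposite separation was seen for 1 member, SELENOS, against 7.48% of all tested genes.

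Over all tested genes, the overexpressing libraries lay below all control libraries in 12.6% of genes with a control mean of at least 100 CPM and in 7.62% of the others, so the members were also read by level. Of 17 members with a control mean of at least 100 CPM, 13 had a log2 fold change below 0, the median was -0.049, and 9 (52.9%) were separated with the overexpressing libraries lower. Among all 2170 tested genes of that level, 47.8% lay below 0 and the median was 0.0029. At an unadjusted edgeR p under 0.05, 4 of the 17 members (23.5%) were lower, against 10.0% of all tested genes of that level. Under 100 CPM, 2 of 19 tested members (10.5%) were lower at that p, against 5.34% of all tested genes there. Of the 19 tested members under 100 CPM, 13 lay below 0 with a median of -0.035, and 3 were separated with the overexpressing libraries lower.

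**Figure D2:**
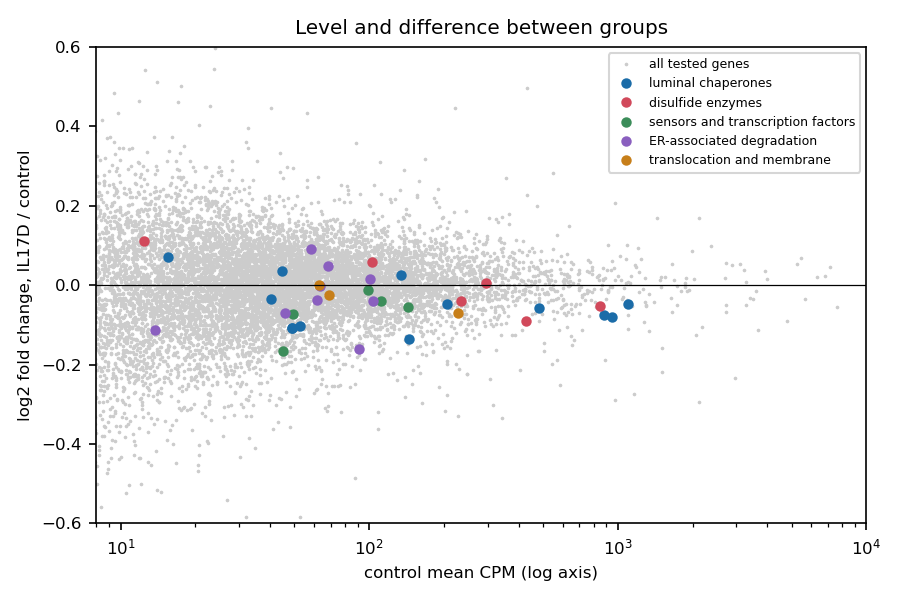
Log2 fold change of IL17D-overexpressing against control libraries (y axis, shown from -0.6 to 0.6) against the control mean in CPM (log x axis, shown from 8 CPM), with all tested genes in grey and the members coloured by role. Of the 17 members at or above 100 CPM, 13 lie below 0, and the band of all genes narrows with level.

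Summed over the 36 tested genes, the level was 7476, 7453 and 7511 CPM in the control libraries and 7168, 7193 and 7265 CPM in the IL17D-overexpressing libraries. The groups did not overlap, and the means were 7480 ± 29.4 and 7209 ± 50.1 CPM (SD, n = 3), a difference of -3.63%. HSPA5, HSP90B1, CANX and P4HB held 50.5% of the control sum. Without these 4 genes, 22 of 32 tested members lay below 0, their median was -0.039, and the sum differed by -2.96%, so the direction did not rest on the most abundant genes alone. These sums are descriptions of the chosen genes, and no test was made on them.

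Among the luminal chaperones, 10 of 13 genes had a log2 fold change below 0, with a median of -0.057. The overexpressing libraries were separated and lower in 7 (53.8%). That share was 8.31% over all tested genes and 12.6% over those with a control mean of at least 100 CPM. Their summed level was 4145, 4143 and 4145 CPM in control and 3952, 3953 and 3994 CPM in overexpressing libraries. The SD was 1.14 CPM among control and 24.5 CPM among overexpressing sums, and the means differed by -4.29%. The control sums lay closer together than single chaperones did, whose control SDs were 8.24 CPM for HSPA5 and 17.1 CPM for CANX, so their SD is no measure of the error of the sum. HSPA5 (BiP, ENSG00000044574, chromosome 9, 125234853 to 125241330, minus strand, GRCh38) is the HSP70 of the ER lumen and the member with the highest level per kilobase. It stood at 954, 940.5 and 955 CPM in control and 900.1, 903 and 892 CPM in overexpressing libraries. Every overexpressing library lay below every control library, with a log2 fold change of -0.080 ± 0.028 (SE), an unadjusted edgeR p of 0.00656 and an adjusted p of 0.179.

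HYOU1 (GRP170, chromosome 11, 119044189 to 119057202, minus strand) is the large HSP70-like protein that exchanges the nucleotide of HSPA5. It stood at 145, 144 and 144 CPM in control and 135, 130.2 and 129 CPM in overexpressing libraries, again without overlap. The control libraries had an SD of 0.689 CPM and the overexpressing libraries one of 3.13 CPM. Its log2 fold change was -0.14 ± 0.041 (SE), with a 95% interval of -0.22 to -0.052, an unadjusted edgeR p of 0.00230 and an adjusted p of 0.101. HSP90B1 (GRP94, chromosome 12, 103930107 to 103953645, plus strand), the HSP90 of the ER, falls outside the rule for genes given in full and was added after its values were seen. Its 3 control libraries stood at 877, 881 and 891 CPM and its overexpressing libraries at 836, 840.4 and 837 CPM, with a log2 fold change of -0.075 and an adjusted edgeR p of 0.236.

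The lectin chaperones of the calnexin cycle, which bind newly made glycoproteins, lay on the same side, with log2 fold changes of -0.049 for CANX (calnexin), -0.057 for CALR (calreticulin) and -0.047 for UGGT1, the glucosyltransferase that returns unfolded glycoproteins to them. The groups of CALR overlapped, and those of CANX and UGGT1 did not. The HSPA5 co-chaperones DNAJB11 and DNAJC3 were at -0.11 and -0.10 and were separated by only 0.101 and 0.0735 CPM. DNAJB9, another of these J proteins and a known XBP1 target, was at 0.070 with overlapping groups and a 95% interval of -0.15 to 0.29. SDF2L1, which works with HSPA5 and DNAJB11, was at -0.11, CRELD2 at -0.035, the secreted ER stress factor MANF at 0.035 and the prolyl isomerase PPIB at 0.027, and all 4 had overlapping groups. The adjusted p of each of these 10 genes was at least 0.536.

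**Figure D3:**
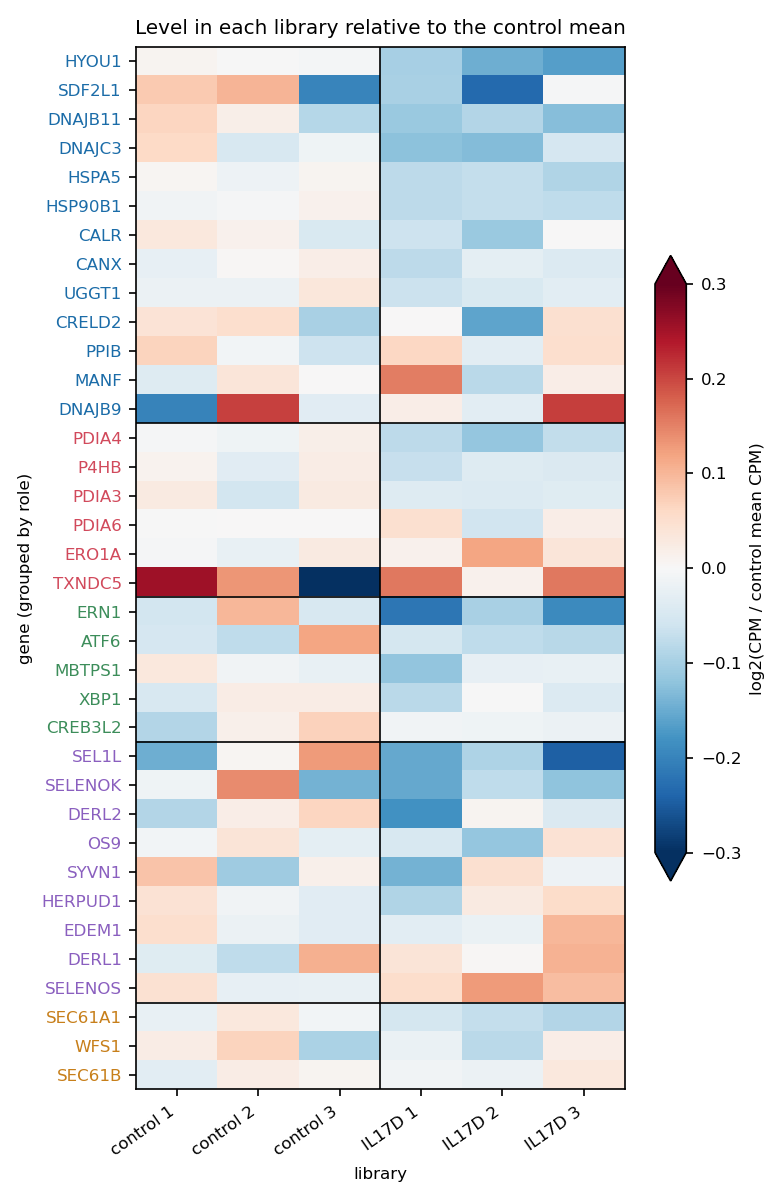
Log2 ratio of the CPM in each library (columns, 3 control and 3 IL17D-overexpressing) to the control mean for each of the 36 tested genes (rows, grouped by role, coloured from -0.3 to 0.3). HSPA5, HSP90B1, HYOU1 and PDIA4 are near 0 in the control columns and below 0 in all 3 overexpressing columns, whereas SDF2L1, TXNDC5 and DNAJB9 vary as much among control libraries as between groups.

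The disulfide enzymes form and rearrange cysteine bonds in folding proteins, and 3 of the 6 lay below 0, with a median of -0.017. PDIA4 (ERp72, chromosome 7, 149003062 to 149028641, minus strand), a protein disulfide isomerase found in complexes with HSPA5, stood at 427, 424 and 433 CPM in control and at 405, 395 and 407 CPM in overexpressing libraries. The groups were separated, with a log2 fold change of -0.089 ± 0.032 (SE), an unadjusted edgeR p of 0.00837 and an adjusted p of 0.204. P4HB (chromosome 17, 81843159 to 81860694, minus strand), the main protein disulfide isomerase and a subunit of collagen prolyl hydroxylase, stood at 854, 828 and 861 CPM in control and 808, 825 and 822 CPM in overexpressing libraries. These groups were separated by only 3.30 CPM, and the log2 fold change was -0.051 with an adjusted edgeR p of 0.523. PDIA3, which pairs with calnexin and calreticulin, was at -0.039, PDIA6 at 0.0045, the oxidase ERO1A at 0.057 and TXNDC5 at 0.11, all with overlapping groups. TXNDC5 was measured with 142 to 241 counts a library, and 60.4% of its 31-base stretches also occur in the readthrough gene BLOC1S5-TXNDC5, so how reads were shared between them is uncertain. PDIA3 shares 36.8% of its stretches with other genes, chiefly the pseudogene PDIA3P1, and PPIB 32.9%, chiefly with SNX22. PDIA6 shares 23.7%, chiefly with ATP6V1C2, and DNAJB11 22.4%. Of the stretches of HSPA5 18.8% and of HSP90B1 18.7% occur in other genes. The gene that shared most with either held 11.1% of the stretches of HSPA5 and 10.0% of those of HSP90B1. It had a mean of at most 10 counts in a group, and counts of the other sharing genes are not given here.

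The 5 members listed as sensors and transcription factors, the protease MBTPS1 among them, were all below 0, with a median of -0.055. Of all tested genes 50.1% were below 0. The sensor PERK (EIF2AK3) is not a member and was at 0.060. Of the 9 tested genes on the list of other sensors and regulators, 4 lay below 0 and 5 above. ERN1 (IRE1, chromosome 17, 64039142 to 64130819, minus strand), the kinase and endoribonuclease that splices XBP1 mRNA, had the lowest log2 fold change of all members. It stood at 43.2, 48.1 and 43.4 CPM in control and at 38.7, 42.0 and 39.3 CPM in overexpressing libraries. The groups did not overlap, and the log2 fold change was -0.17 ± 0.067 (SE), with a 95% interval of -0.30 to -0.030, an unadjusted edgeR p of 0.0180 and an adjusted p of 0.294. Without control replicate 2 the value was -0.11, with an unadjusted edgeR p of 0.135. ATF6 (chromosome 1, 161766294 to 161964070, plus strand), the membrane-bound transcription factor, stood at 47.5, 46.7 and 53.4 CPM in control and at 47.4, 46.6 and 46.5 CPM in overexpressing libraries. Control replicate 3 stood above the other 5 libraries, which lay close together. The log2 fold change was -0.071, with an adjusted edgeR p of 0.742, and without control replicate 3 it was -0.0070.

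XBP1 (chromosome 22, 28794555 to 28800597, minus strand) had the highest level per kilobase of the sensors and transcription factors and stood at 108, 113 and 113 CPM in control and at 105, 111 and 108 CPM in overexpressing libraries. The groups overlapped, with a log2 fold change of -0.040, a 95% interval of -0.13 to 0.052 and an adjusted edgeR p of 0.819, and without IL17D replicate 1 the value was -0.019. A count per gene does not tell the spliced XBP1 mRNA, which encodes the active factor, from the unspliced form, and it does not show cleavage of ATF6. MBTPS1 (site-1 protease, chromosome 16, 84053761 to 84116906, minus strand), which cuts ATF6 in the Golgi, stood at 147, 143 and 142 CPM in control and 132, 141 and 141 CPM in overexpressing libraries. The groups were separated by 0.152 CPM, with a log2 fold change of -0.055 and an adjusted edgeR p of 0.687, and without IL17D replicate 1 the value was -0.023. CREB3L2, a relative of ATF6, was at -0.013.

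In the ER-associated degradation group, 6 of 9 tested genes lay below 0, with a median of -0.036 and summed levels that overlapped between the groups. SEL1L (chromosome 14, 81471549 to 81533861, minus strand), the adaptor of the HRD1 ubiquitin ligase, stood at 82.6, 91.7 and 99.9 CPM in control and at 82.2, 85.8 and 77.2 CPM in overexpressing libraries. Its control libraries spread widely, with an SD of 8.64 CPM, and the lowest of them lay within the overexpressing range. The log2 fold change was -0.16 ± 0.057 (SE), with an unadjusted edgeR p of 0.00784 and an adjusted p of 0.197, but the value turned on the control libraries. It was -0.23 without control replicate 1 (adjusted edgeR p of 0.0349) and -0.089 without control replicate 3 (unadjusted p of 0.123, adjusted p of 0.580). OS9 (chromosome 12, 57693955 to 57721557, plus strand), the lectin that delivers misfolded glycoproteins to that ligase, stood at 103, 106 and 101 CPM in control and at 100.1, 95.4 and 107 CPM in overexpressing libraries. The OS9 groups overlapped, with a log2 fold change of -0.040 and an adjusted edgeR p of 0.834, and the value ran from -0.0017 without IL17D replicate 2 to -0.080 without IL17D replicate 3.

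SELENOS (chromosome 15, 101270817 to 101277500, minus strand), a selenoprotein that links the derlins to the ATPase VCP, stood at 60.2, 57.4 and 57.5 CPM in control and at 60.5, 63.7 and 62.2 CPM in overexpressing libraries. Here every overexpressing library lay above every control library, although the gap was 0.302 CPM. The log2 fold change was 0.091 ± 0.055 (SE), with an unadjusted edgeR p of 0.110 and an adjusted p of 0.580. Of the others, the ligase SYVN1 (HRD1) was at -0.036, the derlins DERL1 and DERL2 at 0.048 and -0.070, the mannosidase-like EDEM1 at 0.015, the ubiquitin-like HERPUD1 at -0.0020 and SELENOK at -0.11, and all 6 had overlapping groups. HERPUD1, whose promoter carries the second form of the element, thus lay nearest to 0 of the members with that form.

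The translocation and membrane group held 3 genes. SEC61A1 (chromosome 3, 128051641 to 128071683, plus strand), the pore subunit of the channel through which new proteins enter the ER, stood at 224, 232 and 226 CPM in control and at 219, 216 and 214 CPM in overexpressing libraries. These groups were separated, with a log2 fold change of -0.071 ± 0.037 (SE), an unadjusted edgeR p of 0.0600 and an adjusted p of 0.466. SEC61B (chromosome 9, 99222064 to 99230615, plus strand), a small subunit of the same channel, stood at 61.7, 64.2 and 63.5 CPM in control and at 62.7, 62.4 and 64.5 CPM in overexpressing libraries. Its log2 fold change was 0.0013, with overlapping groups and a sign that turned with the scaling. WFS1 (wolframin, chromosome 4, 6269849 to 6303265, plus strand), an ER membrane protein, stood at 69.8, 72.0 and 64.4 CPM in control and at 67.8, 65.0 and 69.7 CPM in overexpressing libraries, with a log2 fold change of -0.026 and overlapping groups.

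**Figure D4:**
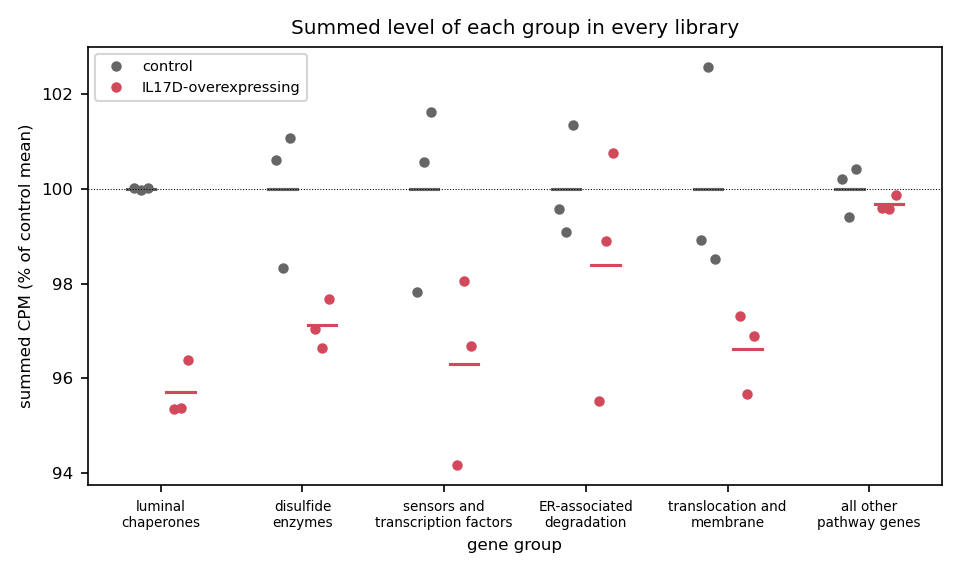
Summed CPM of each role group and of the other pathway genes (x axis) as a percent of its control mean (y axis, which does not start at 0), with a point for each of the 3 libraries of a group and a bar for the mean. The mean of the luminal chaperones differs by -4.29% and that of the other pathway genes by -0.324%.

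The members with the ER stress response element in the promoter lay at a median of -0.049 on the log2 scale, with 6 of 7 below 0, while that of the 27 tested members with a window but no such element was -0.047, with 19 below 0. For HYOU1, SDF2L1 and HERPUD1, which carry the second form, the median was -0.11, against -0.047 for the 31 members without it. For the UPR element, HYOU1 and TXNDC5 had a median of -0.012 with 1 below 0, against -0.048 for the 32 members without it. Only exact matches within the 300 bases of a window were counted, so a variant or more distant element counts as absent. The 27 members without the ER stress response element include HYOU1, SDF2L1, HERPUD1 and TXNDC5, which carry another of these elements. Whether promoters with and without these elements differ was not tested.

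The other genes of the ER secretory pathway, 104 genes on 6 lists, gave the contrast within the same fit. Of these, 103 were tested and 0 had an adjusted p under 0.05, 45 lay below 0 and 58 above, and the median log2 fold change was 0.0079. At an unadjusted p under 0.05, 8 were lower (7.77%, against 5.99% of all tested genes) and 4 higher (against 5.59%). In 11 of the 103 (10.7%, against 8.31%) all overexpressing libraries lay below all control libraries. The opposite separation was seen for 4 of the 103, against 7.48% of all tested genes. Of the 9 tested other sensors and regulators, 3 (33.3%) were separated lower, a share equal to that of the members. On the other lists 5.26% to 14.3% were separated lower. Their summed level was 12842 ± 68.5 CPM in control and 12801 ± 21.8 CPM in overexpressing libraries (SD, n = 3), a difference of -0.324%, and the groups overlapped. The medians of the lists were -0.0017 for other translocation and glycosylation genes, 0.0079 for other degradation genes, 0.0080 for ER-to-Golgi transport, 0.0094 for other folding and disulfide enzymes, 0.030 for other sensors and regulators and 0.052 for the PERK branch. Whether the members differ from these lists was not tested.

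The PERK branch, the arm that slows translation through EIF2S1 (eIF2α) and raises ATF4, was read gene by gene. Values in every library are given for ATF4 and DDIT3, the genes of the branch whose groups did not overlap. Its kinase EIF2AK3 (PERK) was at 0.060 and EIF2S1 at -0.0087, both with overlapping groups. ATF4, the transcription factor of the arm, stood at 366, 359 and 360.1 CPM in control and at 374, 374 and 378 CPM in overexpressing libraries. The ATF4 groups did not overlap, with a log2 fold change of 0.052, an unadjusted edgeR p of 0.115 and an adjusted p of 0.588. DDIT3 (CHOP), a transcription factor induced by ATF4 under lasting stress, stood at 9.42, 9.40 and 9.51 CPM in control and at 6.99, 9.06 and 7.29 CPM in overexpressing libraries. These groups did not overlap either, with a gap of 0.340 CPM on 104 to 153 counts in a library. Over all tested genes, 8.31% were separated in this direction and 7.48% in that of ATF4. The SD of DDIT3 was 0.0608 CPM in control and 1.12 CPM in overexpressing libraries. Its log2 fold change was -0.28 ± 0.14 (SE), with an unadjusted edgeR p of 0.0490 and an adjusted p of 0.430. TRIB3, a target of both, was at -0.082, and PPP1R15A and PPP1R15B, which direct the removal of phosphate from eIF2α, were at 0.076 and 0.084, all with overlapping groups. No gene of the branch passed the adjusted threshold, and a count of mRNA does not show phosphorylation of PERK or eIF2α.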

How the data were processed

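RNA-seq of 3 control and 3 IL17D-overexpressing A549 libraries was analysed. The authors deposited a table of raw counts per gene without normalization, with gene coordinates of GRCh38. The submitters' processing notes name Bowtie2 and hg38, and the counting tool, its use of strand and the annotation release are not given in the sources used here. The methods and the labels name different sequencers. Reads that 2 genes share could have been split or dropped by that counting, so 31-base stretches shared between genes were computed from GENCODE v29 transcripts. Every per-sample column was used.

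Genes were kept by filterByExpr, TMM factors were applied, and libraries of both groups were compared with edgeR 4.0.16 (glmQLFit and glmQLFTest, R 4.3.3), two-sided and without covariates, with Benjamini-Hochberg adjustment over the 15754 tested genes. The filter kept at least 99.8% of the counts of each library. CPM were computed with the TMM factors, and CPM per kilobase by dividing by the gene length in the table. Tables were made with pandas 2.3.3 and figures with matplotlib 3.10.9. The fits were run on simulated data with changes larger than those fitted for the members. That simulation does not show how often differences as small as those of the members would be called. Counting error and limits at a count of 0 cover counting only.

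The members and gene lists were chosen with earlier results of these data known, so no p is given for a list. Genes given in full were those past the adjusted threshold and, in each of 5 role groups, the 2 with the smallest unadjusted p. The rule also took the gene with the highest level per kilobase in each role group, and ERN1, ATF6 and XBP1. Of the other lists it took genes past the threshold and the PERK branch, of which only ATF4 and DDIT3 are given in every library. Alternatives were DESeq2 1.42.0 (its Wald test, and its size factors in edgeR), limma 3.58.1 voom, other filters, the replicate number as a block and each library left out. Other scalings were added after seeing the data.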

Additional observations from a re-analysis of the deposited data

How the results depend on the processing

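No member passed an adjusted p of 0.05 under edgeR, DESeq2, limma voom, either other filter, the replicate block or the other scalings, and over all genes the calls numbered 187 to 295 there, against 249. Left-out libraries gave 0 to 1 called members, the 1 being SEL1L without control replicate 1 (-0.23, adjusted p = 0.0349). They gave 145 to 267 called genes in all, with 155 without IL17D replicate 1 and 145 without IL17D replicate 3. The median log2 fold change of the members was -0.034 without IL17D replicate 1 to -0.053 without IL17D replicate 3, and it deviated by an SD of 0.00861 between libraries of a group. Left-out libraries gave 0 to 1 calls among the other pathway genes, the 1 being SSR4 without control replicate 3 (-0.20, adjusted p = 0.0116). Members lower at an unadjusted p under 0.05 numbered 5 to 8, those higher 0, and those below 0 numbered 24 to 30.

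Of 210 values of the 14 genes given in full under the alternatives, 202 kept their sign and their side of the threshold and 7 changed sign. WFS1 was at 0.0015 without IL17D replicate 2 and 0.0084 without control replicate 2. SEC61B was at -0.00094 without a filter, -0.0017 with scaling to total counts and -0.0053 with upper quartile scaling, and from -0.014 (without control replicate 1) and -0.012 (without IL17D replicate 3) to 0.013 (without control replicate 2) with a library left out. The cause was not tested. The median of all genes moved most with upper quartile scaling, to -0.0069. The median of the degradation group ranged from -0.045 to 0.017 and that of the translocation group from -0.071 to 0.0084 over the alternatives, while the other 3 role groups stayed below 0.

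The labels number the replicates alike in both groups, but same-numbered libraries did not deviate together over all tested genes (correlations 0.0100, -0.0119 and -0.0151). These deviations include counting error, so the values cannot exclude a shared culture or preparation, and whether the numbers pair the libraries is unknown. With the replicate block, 0 members and 272 genes were called and the members' median was -0.043. Counts per gene carry no measure of XBP1 splicing or of protein.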

Other observations

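The ER stress response element was also found in the promoter windows of 9 tested genes that are not members, ALG12, EIF2A, ERO1B, FICD, SERP1, SYNPO, TMEM120A, TRIM5 and ZNF17. Of these, 6 had a log2 fold change below 0, and their median was -0.036. SYNPO, which encodes the actin-associated protein synaptopodin, was the one with an adjusted edgeR p under 0.05, which 1.58% of all tested genes had. It stood at a mean of 129 CPM in control and 115 CPM in overexpressing libraries, with a log2 fold change of -0.17 and an adjusted p of 0.0452, and it was chosen after its values were seen. FICD, the enzyme that modifies HSPA5 by AMPylation, was at -0.036, and SERP1, a stabiliser of ER membrane proteins, at -0.0064. Among 11 tested non-members with the second form, none passed the adjusted threshold, and their median was -0.0097. The UPR element was found for 121 tested non-members, with a median of -0.0096. Of these 121, AHCYL1 (-0.23, adjusted edgeR p of 0.0018) and SMIM14 (-0.26, adjusted edgeR p of 0.0115) passed the adjusted threshold. Of all tested genes 1.58% passed it, and AHCYL1 and SMIM14 were named after their values were seen.

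The other pathway genes at an unadjusted edgeR p under 0.05, named after their values were seen, were on both sides of 0. Lower were DDIT3, ATF6B, a relative of ATF6, SIL1, a nucleotide exchange factor of HSPA5, CLGN, a relative of calnexin, GANAB, the catalytic subunit of glucosidase II, the ubiquitin ligase RNF5, and SSR4 and TRAM1 of the translocation channel. Higher were the transcription factor CREB3, the deglycosylating enzyme NGLY1, FAM8A1, a cofactor of HRD1, and the channel partner SEC63. GANAB was the most abundant of these, at 604, 610.4 and 601 CPM in control and 579.6, 574 and 576 CPM in overexpressing libraries, with no overlap, a log2 fold change of -0.070 and an adjusted p of 0.337. SEC63, which works with HSPA5 at the channel, stood at 70.2, 69.1 and 73.0 CPM in control and at 74.3, 76.7 and 78.3 CPM in overexpressing libraries, with no overlap, a log2 fold change of 0.11 and an adjusted p of 0.390. None of these 12 passed the adjusted threshold, and over all tested genes 5.99% were lower and 5.59% higher at that unadjusted p.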
